A study of Homo sapiens with 4 samples.

Results

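The 3 human ONECUT genes, ONECUT1, ONECUT2 and ONECUT3, were examined for ONECUT2 occupancy in 22Rv1 cells, an established human castration-resistant prostate carcinoma line. Peaks were taken wherever they overlapped a gene interval extended by 100 kb on each side. This gave 9 of 14431 peaks in the list of ChIP replicate 1, 5 of 11990 peaks in the list of replicate 2 and 3 of 4297 regions in a combined list from an irreproducible discovery rate (IDR) procedure, which ranks regions by how alike replicates order them. The samples were 2 chromatin immunoprecipitation (ChIP) libraries, for which a rabbit antibody to ONECUT2 was used, and 2 input DNA libraries. All 4 came from 22Rv1 cells, and the labels name no treatment, no knockout and no second cell line. Separate cultures are not mentioned for the ChIP replicates, and their spread may thus be technical.

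ONECUT proteins are transcription factors with a CUT domain next to a homeodomain, and both domains take part in binding DNA. ONECUT1, also called HNF6, is best known in liver and pancreas development. ONECUT2 acts in liver, retina and nervous system and is known as a factor active in castration-resistant prostate cancer. ONECUT3 is mostly studied in neurons. A transcription factor that binds in its own gene can regulate itself, and binding in a paralog can link family members. A ChIP-seq peak measures occupancy of DNA and does not show regulation.

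Peaks are described here by fold enrichment, the ratio that the peak caller MACS2 gave between ChIP fragments at the summit and the local background from input. The number of fragments behind each ratio was recovered from the deposited fold and p-value. Gene positions are hg19 intervals. ONECUT1 lies on chromosome 15 from 53049160 to 53082209 on the reverse strand. ONECUT2 lies on chromosome 18 from 55102917 to 55158530 on the forward strand. ONECUT3 lies on chromosome 19 from 1753662 to 1775444, and it was read on the forward strand. Exons, introns and untranslated regions were not assigned, because no hg19 annotation was used here. The RefSeq gene of assembly GRCh38.p14 is longer than the interval by 2234 bp for ONECUT1, 311 bp for ONECUT2 and 5700 bp for ONECUT3. Distances from a gene start are therefore distances from the end of the interval used here.

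The promoters of ONECUT2 and ONECUT1 are shown because a replicate 1 peak lay beside the start of ONECUT2 and none lay beside the start of ONECUT1. These are the 250 bases before the RefSeq start in build GRCh38.p14, 5′ to 3′ on the strand of the gene, with CpG dinucleotides in capitals. ONECUT2 is on the forward strand of chromosome 18 from 57435124 to 57435373, and ONECUT1 is on the reverse strand of chromosome 15 from 52790337 to 52790586. The peaks are in another build, so these are not given as the bases under a peak.
ONECUT2: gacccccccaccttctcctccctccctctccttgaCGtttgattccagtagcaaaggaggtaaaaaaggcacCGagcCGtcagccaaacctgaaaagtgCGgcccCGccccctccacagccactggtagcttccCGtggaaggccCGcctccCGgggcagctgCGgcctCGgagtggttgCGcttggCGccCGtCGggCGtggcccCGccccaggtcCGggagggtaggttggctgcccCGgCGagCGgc
ONECUT1: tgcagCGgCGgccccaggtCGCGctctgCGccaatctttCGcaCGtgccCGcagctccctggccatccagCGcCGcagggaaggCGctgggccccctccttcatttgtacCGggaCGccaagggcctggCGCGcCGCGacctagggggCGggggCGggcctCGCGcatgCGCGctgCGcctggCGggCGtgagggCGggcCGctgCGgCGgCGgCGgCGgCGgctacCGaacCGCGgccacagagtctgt
ONECUT2 had 20 CpG dinucleotides and 68.8% G and C, and ONECUT1 had 37 and 76.8%. The 35116 promoters of the RefSeq table had a median of 11 CpG dinucleotides and 58.0% G and C. Of them, 32.4% had at least as many CpG dinucleotides as ONECUT2 and 4.00% at least as many as ONECUT1. The core letters ATTGAT and ATCGAT, searched on both strands, were in neither sequence. ATTGAT was in 5.58% and ATCGAT in 0.655% of all 250-base promoters. Neither motif contains the other, and ATCGAT reads the same on both strands.

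Each ONECUT gene had a peak inside its interval in both replicate lists, and none had an IDR region there. With −log10 q of at least 5, only the ONECUT1 peak (9.54 and 6.25) would stay inside its gene in both lists. The ONECUT2 peak would stay in replicate 1 only, and the ONECUT3 peak (4.26 and 2.79) in neither. For scale, stretches of the same length were tiled over the autosomes and X and counted in the same way, without that threshold. At the ONECUT1 length of 33050 bp, 9.95% held a replicate 1 peak, 8.35% a replicate 2 peak, 6.01% a replicate 1 peak that overlapped a replicate 2 peak and 4.51% an IDR region. At the ONECUT2 length of 55614 bp these shares were 15.3%, 13.1%, 9.58% and 7.15%. At the ONECUT3 length of 21783 bp they were 6.95%, 5.83%, 4.15% and 3.15%, and on chromosome 19 they were 19.3%, 13.1%, 11.4% and 8.78%. The tiles are any stretch of a chromosome, genes or not, so the shares are not those of genes. Stretches where no read can be placed were not left out, so the shares may be too low. The IDR regions were all upstream of the ONECUT3 interval. Of the 9 replicate 1 peaks, 3 were inside genes, 5 in upstream flanks and 1 in a downstream flank, and 5 overlapped a replicate 2 peak (55.6%, exact interval 21.2% to 86.3%). Over the whole list 51.1% of replicate 1 peaks did so. All 5 replicate 2 peaks overlapped a replicate 1 peak (100%, exact interval 47.8% to 100%), against 64.5% of that whole list. The intervals at the ONECUT loci include the share of the whole list in replicate 1 and in replicate 2. They are wide and treat peaks as independent, although 6 of the 9 replicate 1 peaks lay at ONECUT3. No conclusion is drawn from them. The map of summits around each gene start shows the positions of the peaks.

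**Figure D1:**
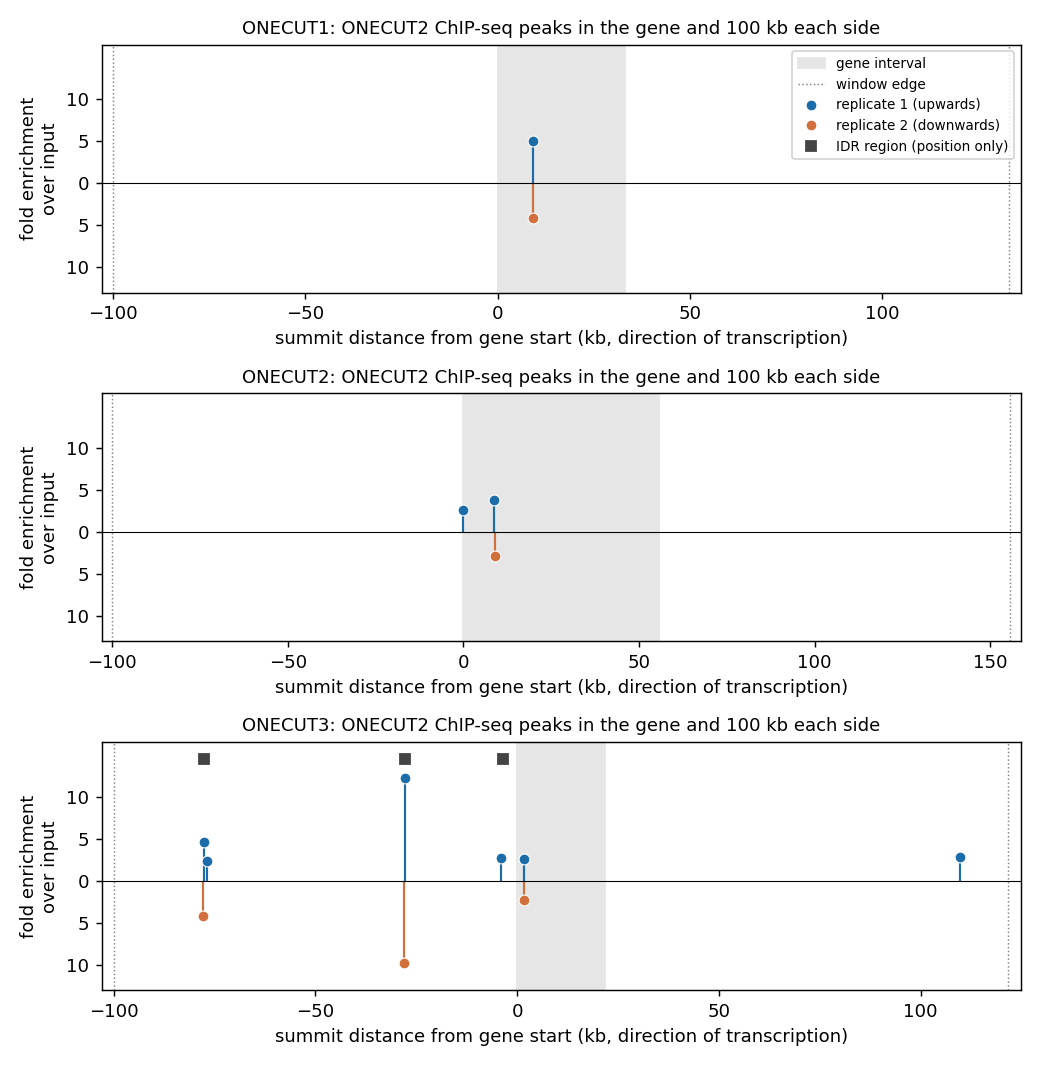
Summits of ONECUT2 ChIP-seq peaks around each ONECUT gene, by distance from the gene start in kb (x axis) and fold enrichment over input (y axis), with replicate 1 upwards, replicate 2 downwards and IDR regions as squares at the top. ONECUT1 and ONECUT2 have peaks near or inside the gene only, while the highest peak, with a fold of 12.3 in replicate 1 and 9.71 in replicate 2, lies 27.9 kb upstream of ONECUT3.

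At ONECUT2 itself, replicate 1 had 2 peaks and replicate 2 had 1. The peak found in both lists lay inside the gene, 8.78 kb after its start, on chromosome 18 from 55111597 to 55112067 in replicate 1 and from 55111648 to 55112210 in replicate 2. Its fold enrichment was 3.88 in replicate 1 and 2.85 in replicate 2, a mean of 3.37 ± 0.724 (SD, n = 2). Replicate 1 stood above the median of its list, 3.28, and replicate 2 below the median of its own, 3.41. There were 36 fragments over a background of 8.54 in replicate 1 (95% Poisson interval 25.2 to 49.8) and 29 over 9.52 in replicate 2 (interval 19.4 to 41.6). The intervals overlap. The lowest background in replicate 2 exceeded the lowest in replicate 1 by a factor of 1.11, taken here as their ratio of depth. Scaled by it, the log2 ratio of fragments in replicate 2 over replicate 1 was -0.47, with a counting SD of 0.36. The summits were 78 bp apart. The peak ranked 4009 of 14431 by fold in replicate 1 and 8968 of 11990 in replicate 2. Its −log10 q was 8.87 and 3.90, so a threshold of 5 would keep it in replicate 1 only and would leave no ONECUT2 peak in replicate 2.

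The other ONECUT2 peak lay at the gene start and was in the replicate 1 list only. It ran from 55102641 to 55102836, ended 81 bp before the start of the interval and had its summit 238 bp before it. Since the RefSeq gene is 311 bp longer than the interval, the peak may lie before or after the start of that gene model. The fold enrichment there was 2.58, below the median of the list, with 44 fragments over a background of 16.4 (interval 32.0 to 59.1). By fold, 80.4% of replicate 1 peaks were at or above it, and by fragments 26.7% were. Neither peak of ONECUT2 overlapped the IDR list.

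How high a peak at the ONECUT2 start would have to be in replicate 2 was computed from the replicate 1 background. With that background scaled by the factor of 1.11 to 18.3, a summit of 36 fragments would have reached −log10 p of 3.95, the lowest in the replicate 2 list. The 44 fragments of replicate 1 became 49.0 when scaled by the same factor (interval 35.6 to 65.8). That number was above the needed height, and its interval included it. The peak was picked because replicate 1 had it, so the scaled number does not say what replicate 2 should reach. At the 5 shared sites, replicate 2 was lower after the same scaling, with log2 ratios from -0.47 to -0.20. Why replicate 2 has no peak at the ONECUT2 start was not tested. Peak callers also ask for a minimum length, which was not examined.

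ONECUT1 had a peak at the same place in both lists and no other peak in its window. It lay inside the gene, 9.33 kb after the start, on chromosome 15 from 53072731 to 53073055 in replicate 1 and from 53072793 to 53073043 in replicate 2. Its fold enrichment was 5.05 in replicate 1 and 4.10 in replicate 2, a mean of 4.58 ± 0.673 (SD, n = 2), and both replicates stood above the medians of their lists. It ranked 51 of 373 peaks by fold on chromosome 15 in replicate 1 and 68 of 257 in replicate 2. The summits were 49 bp apart.

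The height of the ONECUT1 peak rests on a low background. There were 27 fragments over 4.54 in replicate 1 (interval 17.8 to 39.3) and 24 over 5.10 in replicate 2 (interval 15.4 to 35.7), where the smallest backgrounds of the lists were 4.37 and 4.87. The replicates share 1 input background, so the low background is not a separate measurement in each list. By fold 11.2% of replicate 1 peaks and 21.8% of replicate 2 peaks were at or above it. By fragments 66.5% and 65.2% were. The peak was in no IDR region, and the nearest IDR region to the window ended 87.6 kb outside it.

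ONECUT3 had the most peaks of the 3 genes, with 6 in replicate 1, 3 in replicate 2 and 3 IDR regions. By RefSeq gene order in GRCh38.p14 its protein-coding neighbours are TCF3 on the upstream side and ATP8B3, REXO1 and KLF16 on the downstream side. Which of these a peak belongs to was not assigned.

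The highest peak at any ONECUT gene lay 27.9 kb upstream of the ONECUT3 start. It ran on chromosome 19 from 1724719 to 1726808 in replicate 1 and from 1724805 to 1726811 in replicate 2. Its fold enrichment was 12.3 in replicate 1 and 9.71 in replicate 2, a mean of 11.0 ± 1.84 (SD, n = 2). There were 262 fragments over a background of 20.4 in replicate 1 (interval 231 to 296) and 229 over 22.7 in replicate 2 (interval 200 to 261). The log2 ratio of fragments, replicate 2 over replicate 1 and scaled by the factor of 1.11, was -0.35 with a counting SD of 0.13, so this site was lower in replicate 2 by more than 2 counting SDs. At the other 4 shared sites the difference was within 2 counting SDs. Replicate 2 was lower at those sites too, with log2 ratios from -0.47 to -0.20 and larger counting SDs, from 0.22 to 0.40. Median fragments over the whole lists were also lower in replicate 2, 30 against 34 before scaling. The scaled ratio is not given here for the whole lists, so the difference is not read as particular to this site. At the site 27.9 kb upstream the summits were 18 bp apart. It ranked 194 of 14431 and 263 of 11990 by fold in the whole lists, 15 of 796 and 21 of 507 on chromosome 19, and 63 and 77 by fragments in the whole lists. Its widths of 2090 and 2007 bp set it among the widest 1.21% and 1.29% of peaks, against medians of 317 and 294 bp. The IDR region there, from 1725115 to 1726218, had a signal of 742, on a scale its header does not name, and ranked 92 of 4297.

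A second site in both lists and in the IDR list lay 77.7 kb upstream of ONECUT3. It ran from 1675334 to 1676418 in replicate 1 and from 1675364 to 1676458 in replicate 2. Fold enrichment there was 4.64 and 4.20, a mean of 4.42 ± 0.313 (SD, n = 2), with 89 fragments (interval 71.5 to 110) and 80 (interval 63.4 to 99.6). The IDR region there, from 1675519 to 1676846, had a signal of 298. It also took in a weaker replicate 1 peak from 1676595 to 1676853, with a fold of 2.40 and 33 fragments.

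The start of ONECUT3 had weaker peaks on both sides. Inside the gene, 1.78 kb after the start, a peak was in both lists, from 1755262 to 1755590 in replicate 1 and from 1755299 to 1755585 in replicate 2. Its fold enrichment was 2.59 and 2.28, a mean of 2.43 ± 0.219 (SD, n = 2), below the medians of both lists, and the summits were 1 bp apart. It had 37 fragments (interval 26.1 to 51.0) and 36 (interval 25.2 to 49.8) and no IDR region. Its −log10 q was 4.26 and 2.79, so a threshold of 5 would keep it in neither list. Before the start, at 3.99 kb, replicate 1 had a peak from 1749602 to 1749835 with a fold of 2.71 and 32 fragments. That peak was not in replicate 2, yet an IDR region from 1748756 to 1751491 with a signal of 207 covered it, with its summit 590 bp from the replicate 1 summit. Since the RefSeq gene is 5700 bp longer than the interval, both may lie before or after the start of that gene model. The last peak, from 1863360 to 1863566 and 110 kb after the start, had a fold of 2.88 and 35 fragments in replicate 1 only.

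The same height was computed for the 3 ONECUT3 peaks found in replicate 1 only. With backgrounds scaled by the factor of 1.11, summits of 31, 27 and 28 fragments would have been needed in replicate 2 at 76.9 kb upstream, 3.99 kb upstream and 110 kb downstream. The replicate 1 numbers scaled in the same way were 36.8 (interval 25.3 to 51.6), 35.6 (interval 24.4 to 50.3) and 39.0 (interval 27.2 to 54.2). Each number was above the needed height, and each interval included it. These peaks too were picked because replicate 1 had them, so the scaled numbers do not say what replicate 2 should reach. Why replicate 2 has no peak at these places was not tested.

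**Figure D2:**
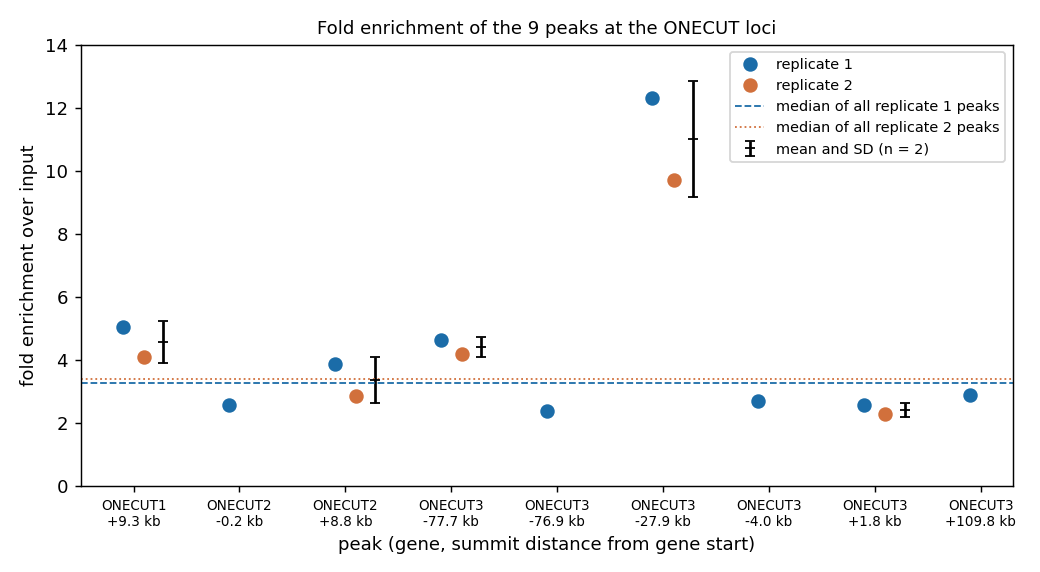
Fold enrichment over input (y axis) of the 9 peaks at the ONECUT genes (x axis, by gene and distance from its start), with replicate 1 and 2 as points, mean and SD (n = 2) where both lists hold the peak, and the medians of the whole lists as lines. The peak 27.9 kb upstream of ONECUT3 stands alone at 12.3 and 9.71, and the others lie between 2.28 and 5.05.

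Across the ONECUT loci, fold enrichment ran from 2.40 to 12.3 in replicate 1 and from 2.28 to 9.71 in replicate 2. The median was 2.88 over the 9 replicate 1 peaks and 4.10 over the 5 replicate 2 peaks, beside 3.28 and 3.41 over the whole lists. In replicate 1, 4 of 9 peaks were above the median of the list, and in replicate 2, 3 of 5 were. The only peak with a fold of 6 or more was the one 27.9 kb upstream of ONECUT3, in both lists. Fold enrichment was higher in replicate 1 at all 5 sites found in both lists, as it was at 66.7% of 7370 overlapping pairs in the whole lists.

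**Figure D3:**
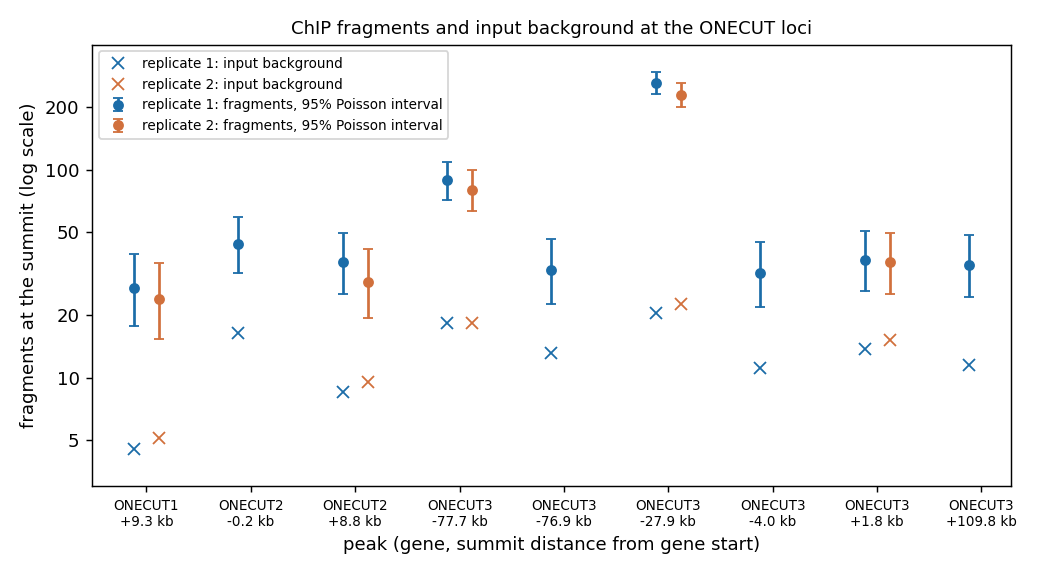
ChIP fragments at the summit with 95% Poisson intervals (points and bars, counting error only) and local input background (crosses), on a log axis, for the 9 peaks at the ONECUT genes (x axis, by gene and distance from its start). The intervals of the replicates overlap at each of the 5 shared peaks, and the ONECUT1 peak has the lowest background, 4.54 in replicate 1.

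Whether the ONECUT windows held more peaks than other stretches was read against windows of the same length tiled over the autosomes and X. Here too, stretches where no read can be placed were not left out, so the shares may be too low. Peaks at ONECUT1 and ONECUT2 were not unusual in number. Of windows of the ONECUT1 length, 233050 bp, 41.0% held at least 1 replicate 1 peak, 37.1% a replicate 2 peak and 29.4% a replicate 1 peak that overlapped a replicate 2 peak. On chromosome 15 the first 2 shares were 37.9% and 30.1%. An IDR region, absent at ONECUT1, was in 22.3% of windows.

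Of windows of the ONECUT2 length, 255614 bp, 43.3% held at least 1 replicate 1 peak, 39.3% a replicate 2 peak and 31.5% a shared peak. On chromosome 18, a gene-poor chromosome, the shares were 34.5%, 31.2% and 24.0%. At least 2 replicate 1 peaks, the number at ONECUT2, were in 27.6% of all windows and 19.1% of those on chromosome 18. An IDR region, absent at ONECUT2, was in 24.0% of all windows. A peak of fold 6 or more, absent at ONECUT1 and ONECUT2, was in at most 8.17% of windows of either length.

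ONECUT3 lies on chromosome 19, where peaks were dense. Of windows of its length, 221783 bp, 39.9% held at least 1 replicate 1 peak, 35.9% a replicate 2 peak, 28.4% a shared peak and 21.6% an IDR region. On chromosome 19 the shares were 69.5%, 58.6%, 56.4% and 48.1%. At least as many peaks as at ONECUT3 were in 3.44% of all windows in replicate 1, 11.1% in replicate 2 and 2.16% in the IDR list. On chromosome 19 these shares were 15.0%, 27.4% and 11.3% of 266 windows. A peak of fold 6 or more was in 7.11% of all windows and 22.2% of those on chromosome 19 in replicate 1, and in 5.78% and 15.8% in replicate 2.

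**Figure D4:**
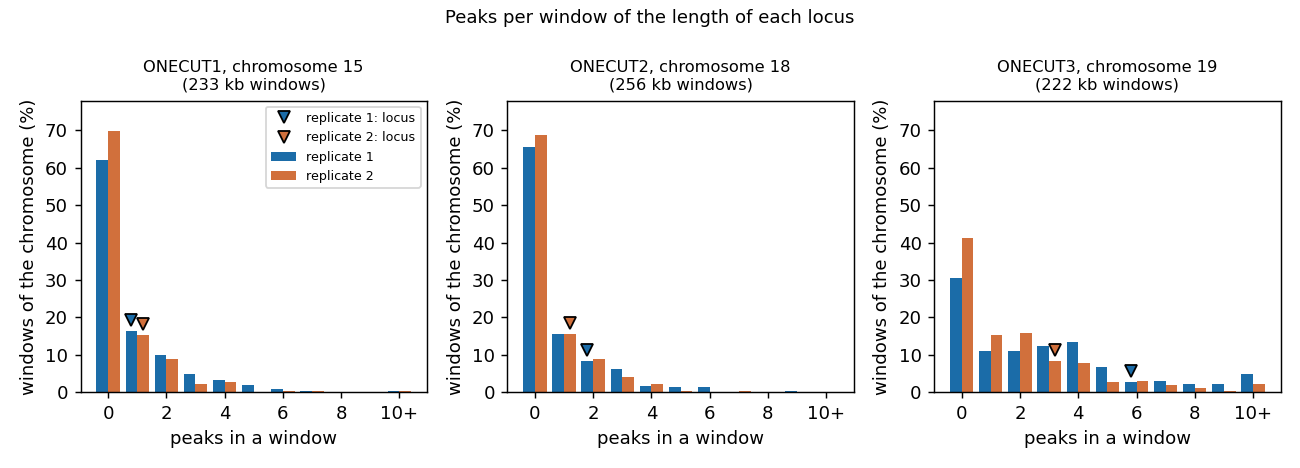
Share of windows in percent (y axis) by number of peaks in the window (x axis), for windows of the length of each locus on its own chromosome, with triangles at the ONECUT locus and 10 or more peaks pooled. ONECUT1 and ONECUT2 sit at 1 or 2 peaks, and ONECUT3 sits at 6 peaks in replicate 1 and 3 in replicate 2 on a chromosome where 69.5% and 58.6% of windows held a peak.

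The next peaks outside the windows lay at varied distances. In replicate 2 the next peaks beyond the ONECUT1 window were 646 kb and 2306 kb from its edges, and in replicate 1 they were 87.8 kb and 307 kb away. Beyond the ONECUT2 window they were 1394 kb and 107 kb away in replicate 2 and 697 kb and 212 kb in replicate 1. The nearest IDR region to the ONECUT2 start, from 55469682 to 55471280, was 367 kb after it. On the downstream side of the ONECUT3 window the next peak ran from 1940700 to 1940890 in replicate 1, 65.3 kb outside, with a fold of 2.41. In replicate 2 it ran from 2050966 to 2051254, 176 kb outside, with a fold of 2.99. The next IDR regions were 214 kb outside on the upstream side and 288 kb on the downstream side.

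The edge of the ONECUT3 window left out a peak that was in both lists. It ran on chromosome 19 from 1652540 to 1653417 in replicate 1, 245 bp outside the edge, and from 1652674 to 1653244 in replicate 2, 418 bp outside. Its fold enrichment was 5.46 with 87 fragments in replicate 1 and 4.63 with 85 in replicate 2, above every ONECUT3 peak inside the window except the one 27.9 kb upstream. No IDR region covered it.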

How the data were processed

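ChIP-seq for ONECUT2 was analysed in 22Rv1 from 3 deposited lists. Per the file headers, MACS2 made the replicate lists, each from 1 ChIP library against input, and the third is an optimal IDR set, for which the sources used here give no caller. Build hg19 and the tools MACS2 2.1.1, Picard and BWA 0.7.13-r1126 are named in the submitters' processing notes. The authors deposited fold enrichment (a ratio), −log10 p and −log10 q per peak, and a score and signal value per IDR region. Neither the sources used here nor the lists state read totals or calling settings.

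Fragments and background were recovered from fold, (fragments + 1)/(background + 1), and the Poisson upper tail. A whole number matched −log10 p within 0.001 in 100% of both lists. Both steps, recovery and overlap, were tested on simulated data. Median fragments were 34 and 30, which limits precision. At 45 of 45 pairs of peaks with the same summit and a background above the smallest, the backgrounds stood in a ratio of 1.11, so the replicates share 1 input background. Overlap needed 1 bp. Intervals (95%, Poisson or Clopper-Pearson) cover counting error only. Windows of the extended length and, added after the data were seen, of the gene length were tiled from position 0 to the last peak of each autosome and X. No test across samples was made, since there is 1 ChIP group. Every peak in the windows is named, and the next replicate peak outside on each side is given by its distance. The members, lists and alternatives were chosen with earlier results of these data known. Strands of ONECUT1 and ONECUT2 came from RefSeq, and that of ONECUT3 from general knowledge. Of the 3 genes, 2 matched the RefSeq promoter table. Python 3.11.15, numpy 2.4.6, scipy 1.17.1 and pandas 2.3.3 were used.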

Additional observations from a re-analysis of the deposited data

How the results depend on the processing

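Peaks at the loci numbered 9 in replicate 1, 5 in replicate 2 and 3 in the IDR list. With no flank, by construction fewer, they numbered 3, 3 and 0, and with 250 kb flanks 15 in replicate 1. With −log10 q of at least 5, replicate 2 kept 3 peaks. Counting only replicate 1 peaks with a replicate 2 partner, chosen after seeing the data, gave 5. The other 10 alternative counts, summed over the 3 genes, stayed within 1.5 times. At ONECUT3 alone, 6 replicate 1 peaks became 3 with 50 kb flanks and 3 with −log10 q of at least 5. Its 3 replicate 2 peaks became 2 in each case. The 5 shared sites were 5 when summits had to be within 100 bp or overlap had to cover 50% of each peak. Without either replicate, fold at each shared site is the value of the other, 2.28 to 12.3. Ranks by −log10 p or fragments differed over 1.5 times from ranks by fold in 18 of 28 cases. Window shares left their interval in 9 of 18 alternatives, each time when only windows on the chromosome of the locus were counted. With the tiles shifted along the chromosomes, every share stayed within its interval. No paired analysis was possible because ChIP and input, which share replicate numbers, have no separate values in the deposited lists.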
